A study of Macaca mulatta with 30 samples.

Results

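GPRIN3, SUCO, GLIS3, FANCG and C18orf21 are 5 of the 15521 genes measured in the medial prefrontal cortex of ethanol-drinking rhesus macaques. They were selected on their measured slope over 4 drinking categories, fitted as a straight line with cohort in the model. By the size of their p-values, GPRIN3 and SUCO stood 3 and 4 among the genes with a positive slope, and C18orf21, GLIS3 and FANCG stood 1, 2 and 3 among those with a negative slope. All 5 members passed the filter on low values (10 or more normalized reads in 6 or more libraries), as did 12935 genes in all. Because the slopes picked the genes, the slopes and all differences between drinking categories are given below as a description with no test. Over all 12935 genes, 0 (0%) had a slope past an adjusted p of 0.05 in limma, and 799 (6.18%) had an unadjusted p under 0.05, with 0 adjusted and 814 unadjusted calls in edgeR, so the 5 genes are among the smallest p-values of a comparison with no adjusted call.

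Area 32 was dissected from 30 male animals (Macaca mulatta), and each library holds the RNA of 1 animal, made from total RNA by ribosomal depletion. Every animal was first induced to drink ethanol and then drank 4% (w/v) ethanol by choice for 22 hours a day over more than 12 months, so all 4 categories are ethanol drinkers and none is free of ethanol. Low drinkers (LD, n = 10) met none of the definitions of the other categories. Binge drinkers (BD, n = 7) took at least 2 g/kg on at least 55% of days and reached a blood ethanol of 80 mg/dl at least once a year. Heavy drinkers (HD, n = 7) took at least 3 g/kg on at least 20% of days. Very heavy drinkers (VHD, n = 6) averaged over 3 g/kg a day and passed 4 g/kg on at least 10% of days. The animals belong to cohorts 4, 5, 7a and 7b, with 9, 8, 8 and 5 animals and mean ages of 9.98, 7.15, 5.7 and 7.18 years at the end of drinking. VHD animals come from cohorts 5 (4 animals) and 7a (2 animals), and LD animals from cohorts 4 (4 animals), 7a (3 animals) and 7b (3 animals), which leaves cohort 7a as the only one with animals of both categories. Libraries hold 4.39 to 13.99 M reads (M being 10 to the power of 6) in measured exons.

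The 5 genes belong to separate pathways. GPRIN3 is a member of the family of G protein-regulated inducers of neurite outgrowth, membrane-associated proteins that bind the alpha subunits of Gi/o proteins, the class through which many inhibitory receptors signal; in mice GPRIN3 has been studied in striatal neurons. SUCO is a membrane protein of the endoplasmic reticulum with a SUN domain, known in mice for its role in bone formation. GLIS3 is a Krüppel-like zinc finger transcription factor, best known for its role in pancreatic beta cells and in the thyroid. FANCG is a subunit of the Fanconi anaemia core complex, the ubiquitin ligase assembly that starts the repair of DNA crosslinks. C18orf21 has been reported in human cells as a protein of RNase MRP, an enzyme that cuts ribosomal RNA precursors.

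The genes differ in level and in how many reads support them. Per kilobase of measured exon and averaged over the 30 libraries, SUCO was highest at 118 normalized reads, followed by C18orf21 at 88.9, FANCG at 56.1, GPRIN3 at 34.3 and GLIS3 at 19.1. Counted in whole reads per library, SUCO had 274 to 1174, GPRIN3 104 to 388, FANCG 72 to 241, GLIS3 58 to 233 and C18orf21 32 to 151. C18orf21, high per length, is thus the gene with the fewest reads, because its measured exons sum to 990 bases against 6986 for GLIS3. The exon names place GPRIN3 on chromosome 4 (87602211 to 87666915), SUCO on chromosome 1 (194419526 to 194501031), GLIS3 on chromosome 9 (30563761 to 30905829), FANCG on chromosome 9 (61984315 to 61990504) and C18orf21 on chromosome 18 (24678975 to 24685579), in a genome build that is not given in the sources used here. No exon of the 5 genes overlaps an exon of another gene in the table.

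GPRIN3, the G protein partner, had its lowest values among low drinkers. Its lowest, median and highest normalized reads were 142, 186 and 249 in LD animals, 161, 235 and 283 in BD animals, 197, 214 and 289 in HD animals, and 218, 230 and 286 in VHD animals. The groups overlap at the top and part at the bottom, since 7 of the 10 LD animals lay below every VHD animal and 6 lay below every HD animal. The LD mean was 195 ± 37 (SD), the BD mean 229 ± 42, the HD mean 223 ± 33 and the VHD mean 238 ± 25, so the step from LD to BD is the largest and the 3 upper categories lie within 1 SD of each other. The slope was 0.17 ± 0.04 log2 units per category (limma estimate ± SE), with differences from LD of 0.27 ± 0.11 for BD, 0.33 ± 0.12 for HD and 0.52 ± 0.14 for VHD. All 6 VHD and all 7 HD animals exceeded the LD mean, as did 5 of 7 BD animals. With no cohort term the slope is 0.09 and the differences are 0.20 for HD and 0.30 for VHD, and without BD replicate 1 the BD difference is 0.16.

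SUCO, the endoplasmic reticulum protein, had a smaller slope on a larger number of reads. Its lowest, median and highest normalized reads were 519, 605 and 706 among LD animals, 542, 620 and 770 among BD, 600.4, 685 and 755 among HD and 589, 705 and 744 among VHD animals. The ranges overlap in all 4 categories, and 3 of 6 VHD and 3 of 7 HD animals lay above every LD animal. The LD mean was 604 ± 53 (SD), the BD mean 637 ± 78, the HD mean 680 ± 56 and the VHD mean 690 ± 61, an even climb up to HD. The slope was 0.11 ± 0.03 per category, and the differences from LD were 0.08 ± 0.07 for BD, 0.24 ± 0.08 for HD and 0.31 ± 0.09 for VHD. With no cohort term the slope is 0.07 and the VHD difference 0.19. With sets of library numbers in the model the HD difference is 0.14, and without BD replicate 1 the BD difference is 0.03.

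GLIS3, the zinc finger transcription factor, had higher means in LD and BD than in HD and VHD. Its lowest, median and highest normalized reads were 123, 150 and 193 among LD animals, 100, 144 and 176 among BD, 85.6, 110 and 121 among HD and 90.0, 117 and 130 among VHD animals. Every HD animal lay below every LD animal, and 5 of 6 VHD animals did. Among the 12935 tested genes, 1 (0.00773%) had all HD below all LD animals, and that gene is GLIS3 itself; 3 (0.0232%) had all VHD below all LD animals, and GLIS3 is not among these. These values are from the animals that chose the gene and support nothing by themselves. The LD mean was 157 ± 22 (SD), the BD mean 141 ± 24, the HD mean 107 ± 13 and the VHD mean 115 ± 14, so VHD lies slightly above HD. The slope was −0.18 ± 0.05 per category, and the differences from LD were −0.18 ± 0.11 for BD, −0.55 ± 0.12 for HD and −0.44 ± 0.14 for VHD. Without BD replicate 7 the BD difference is −0.10.

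FANCG, the DNA repair gene, had lower means in all 3 upper categories than in LD. Its lowest, median and highest normalized reads were 111, 169 and 194 among LD animals, 107, 142 and 187 among BD, 120, 127 and 150 among HD and 107, 134 and 151 among VHD animals. The overlap rests on few animals, since 8 of 10 LD animals lay above every VHD animal and 8 lay above every HD animal, while the lowest LD animal lay below every HD animal. The LD mean was 166 ± 23 (SD), the BD mean 145 ± 24, the HD mean 129 ± 10 and the VHD mean 133 ± 17. FANCG had a slope of −0.15 ± 0.04 per category and differences from LD of −0.26 ± 0.10 for BD, −0.40 ± 0.11 for HD and −0.39 ± 0.13 for VHD. All 6 VHD and all 7 HD animals were under the LD mean.

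C18orf21, the RNase MRP protein, was the least orderly of the 5 over the categories. Its lowest, median and highest normalized reads were 72.4, 93.9 and 117 among LD animals, 57.5, 87.9 and 99.6 among BD, 60.0, 96.5 and 112 among HD and 56.6, 68.3 and 99.999 among VHD animals. The median of HD lies above that of LD, and VHD has the lowest median, with 4 of 6 animals below every LD animal. The LD mean was 94.5 ± 13.8 (SD), the BD mean 85.8 ± 13.9, the HD mean 91.7 ± 19.6 and the VHD mean 75.3 ± 18.3. The slope was −0.19 ± 0.05 per category, and the differences from LD were −0.13 ± 0.12 for BD, −0.24 ± 0.14 for HD and −0.63 ± 0.16 for VHD. These fitted values include the cohort term and exceed what the plain means show, and without that term the slope is −0.09, the HD difference −0.06 and the VHD difference −0.34. Without BD replicate 5 the BD difference is −0.07, and with sets of library numbers in the model the HD difference is −0.40.

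**Figure D1:**
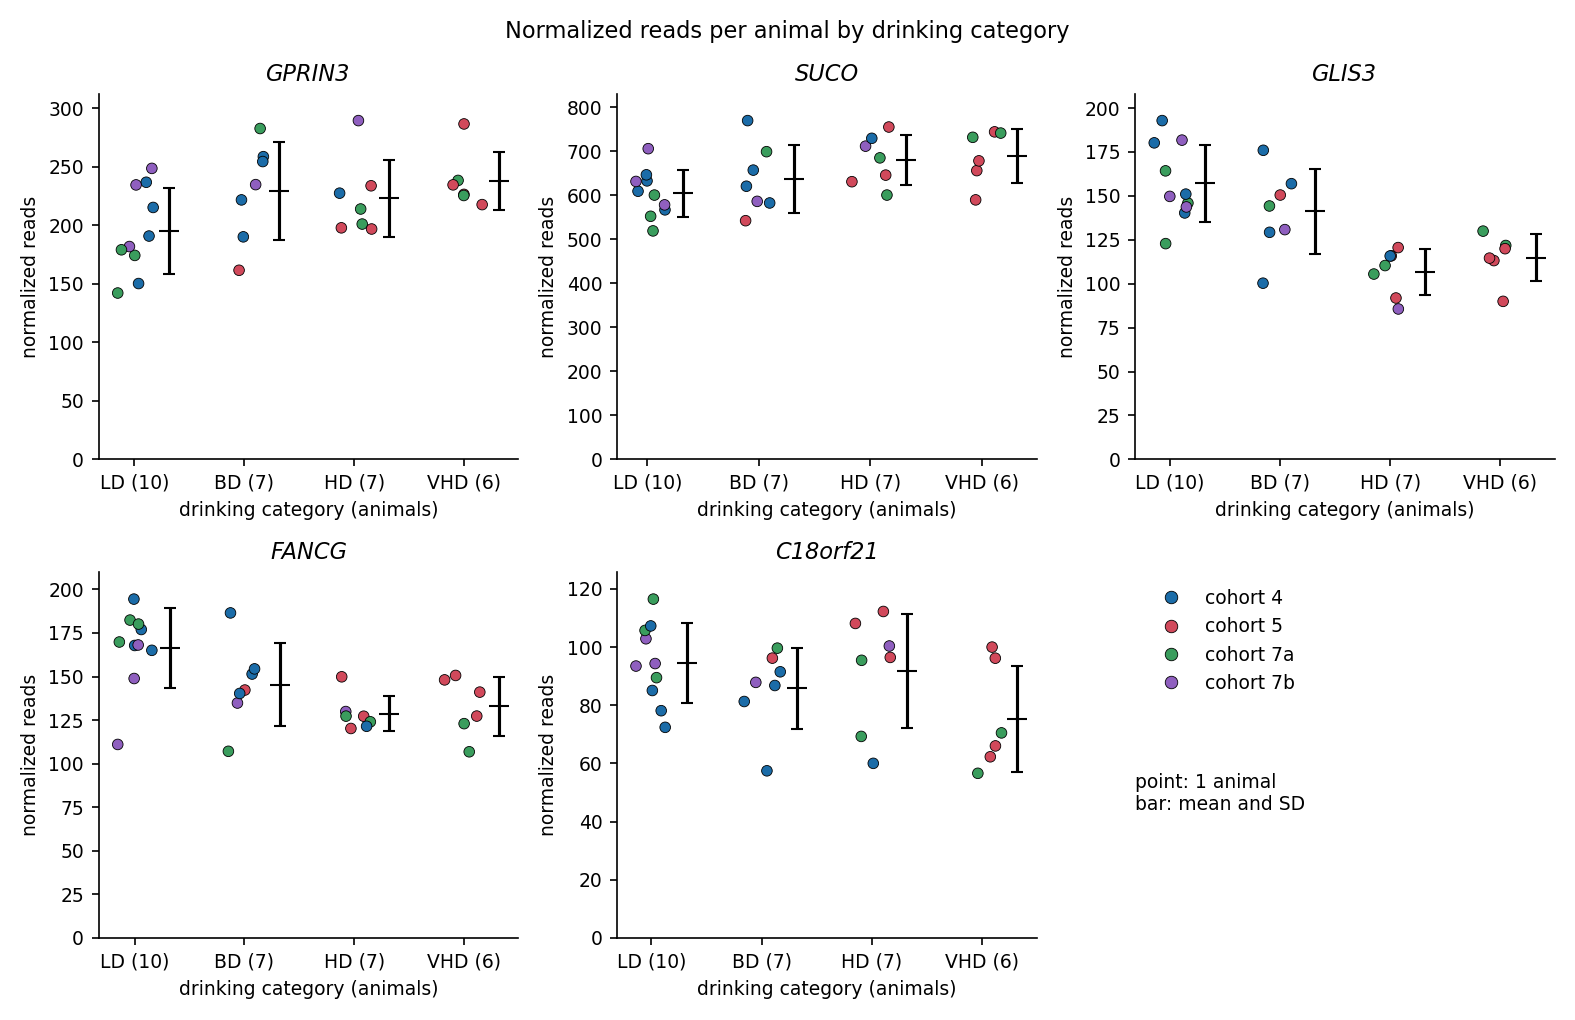
Normalized reads (y axis, from 0) of each gene in each animal by drinking category (x axis, number of animals in brackets), with points coloured by cohort and bars giving mean and SD. GLIS3 has its higher means in LD and BD, with all HD points under the lowest LD point at 123, whereas C18orf21 overlaps in all categories and is lowest in VHD at 75.3 ± 18.3.

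The VHD, HD and BD differences share the LD animals and are given side by side without being compared. In bulk tissue, fewer cells that express a gene and less RNA per cell cannot be told apart.

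Whether the slopes recur in each cohort was examined next, since the categories are spread unevenly over cohorts. Within cohorts 4, 5, 7a and 7b the slope of GPRIN3 was 0.15 ± 0.11, 0.26 ± 0.10, 0.15 ± 0.07 and 0.19 ± 0.11 per category (estimate ± SE). That of SUCO was 0.11 ± 0.07, 0.10 ± 0.08, 0.12 ± 0.04 and 0.06 ± 0.09. Both were positive in all 4 cohorts, although not every estimate exceeded 2 SE. GLIS3 was negative in all 4, at −0.25 ± 0.13, −0.16 ± 0.12, −0.09 ± 0.06 and −0.41 ± 0.12, and was flattest in cohort 7a. FANCG was negative in cohorts 4, 7a and 7b, at −0.23 ± 0.09, −0.20 ± 0.06 and −0.06 ± 0.13, and stood at 0.03 ± 0.10 in cohort 5. C18orf21 was negative in cohorts 4, 5 and 7a, at −0.20 ± 0.14, −0.22 ± 0.14 and −0.23 ± 0.07, and stood at 0.01 ± 0.13 in cohort 7b. These slopes are parts of the values that chose the genes. Whether cohorts differ in slope is a separate question that the choice did not use: no gene was called by limma (0 of 12935 adjusted, 290 or 2.24% at an unadjusted p under 0.05, and 0 adjusted by edgeR), and all 5 genes had an adjusted p of 0.9998 in limma, with unadjusted p-values of 0.158 for GLIS3, 0.162 for FANCG, 0.532 for C18orf21, 0.833 for GPRIN3 and 0.901 for SUCO. This test has little reach, since it found 0% of simulated 1.5-fold and 8.96% of simulated 2-fold differences in 12935 genes. The simulated slopes were put into cohort 4 alone, which has no VHD animal.

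**Figure D2:**
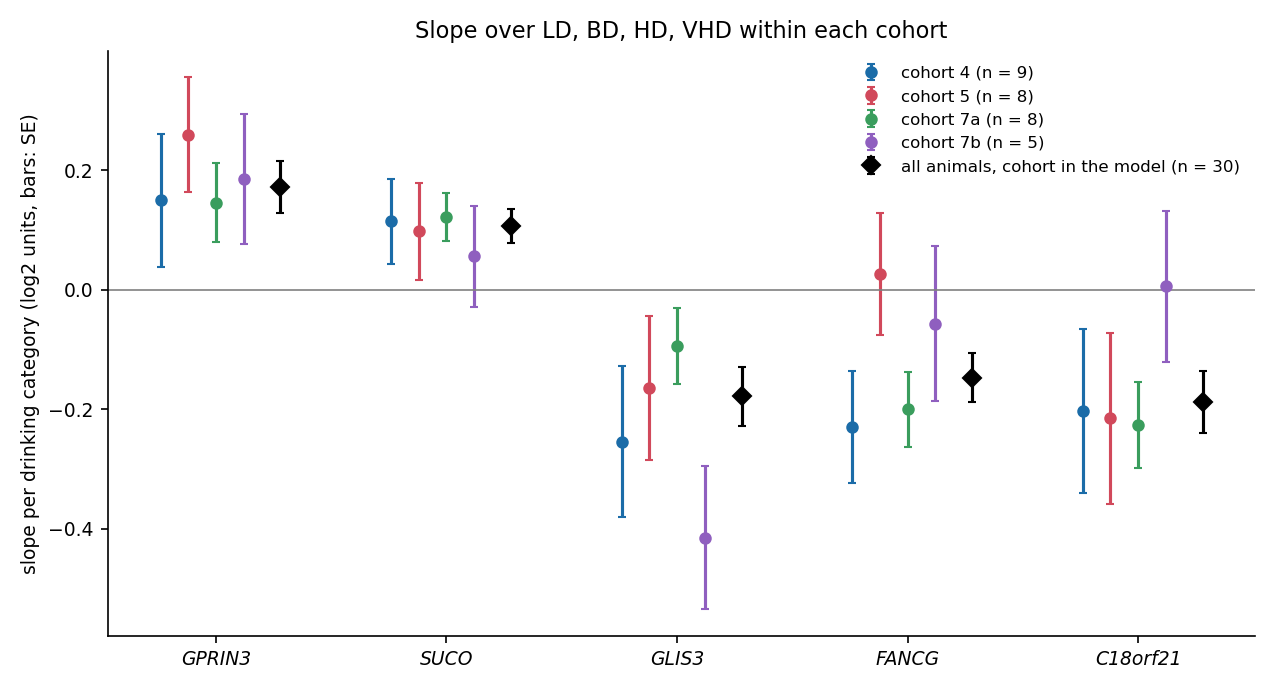
Slope per drinking category in log2 units (y axis) of each gene (x axis) within each cohort and over all 30 animals, with bars giving 1 SE. GPRIN3 and SUCO lie above 0 and GLIS3 below 0 in all 4 cohorts, FANCG reaches 0.03 in cohort 5 and C18orf21 0.01 in cohort 7b.

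The only direct comparison of VHD with LD animals of the same cohort is in cohort 7a. There GPRIN3 averaged 232 ± 9.1 normalized reads in 2 VHD animals and 165 ± 20 in 3 LD animals (SD). SUCO averaged 736 ± 6.8 in VHD and 557 ± 41 in LD, and FANCG 115 ± 11 in VHD and 177 ± 6.7 in LD. C18orf21 averaged 63.5 ± 9.8 in VHD and 104 ± 14 in LD. For these 4 genes the VHD and LD animals of cohort 7a do not overlap, as in 14.2% of the 12935 tested genes with VHD higher and 12.1% with VHD lower, and these animals are among those that chose the genes. GLIS3, at 126 ± 5.8 in VHD and 144 ± 21 in LD, does overlap, with 1 LD animal at 123.

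The shape of the pattern over categories and the difference between cohorts were not themselves used to pick the genes, and both were tested in limma. The cohort difference is not independent of the choice, because the slopes were fitted with cohort and the categories are spread unevenly over cohorts. A departure from a straight line was called for 0 of 12935 genes after adjustment (617 or 4.77% unadjusted, 0 adjusted by edgeR). The 5 genes had adjusted p-values of 0.942 to 0.956, and the smallest unadjusted value was 0.0669 for GLIS3. Its HD mean lies below its VHD mean despite a negative slope, which also holds for FANCG (unadjusted p = 0.195 in limma). Any difference between cohorts, with category in the model, was likewise called for 0 genes (1040 or 8.04% unadjusted, 0 adjusted by edgeR). The adjusted p-values from limma were 0.471 for C18orf21, 0.584 for GPRIN3, 0.684 for FANCG, 0.799 for SUCO and 0.967 for GLIS3. Before adjustment they were 0.0122, 0.0351, 0.0810, 0.221 and 0.837 in the same order. Cohort 4, the oldest, was set against cohort 7a, the youngest, in which again 0 genes were called (1183 or 9.15% unadjusted, 0 adjusted by edgeR). The differences were 0.16 ± 0.11 for GPRIN3, 0.10 ± 0.07 for SUCO, 0.05 ± 0.12 for GLIS3, 0.16 ± 0.10 for FANCG and −0.27 ± 0.13 for C18orf21 (log2, cohort 4 minus cohort 7a, ± SE, n = 9 and 8), with adjusted p-values of 0.690, 0.718, 0.949, 0.669 and 0.539 from limma. None of the 5 passed, and C18orf21, averaging 80.0 ± 15.5 normalized reads in cohort 4 and 87.9 ± 20.6 in cohort 7a, came nearest. Leaving out 1 library at a time, the difference of GPRIN3 lay between 0.11 (without LD replicate 4) and 0.29 (without BD replicate 1), and that of FANCG between 0.07 (without BD replicate 1) and 0.20. For SUCO it lay between 0.07 and 0.16 (without BD replicate 1), and for C18orf21 between −0.32 and −0.21. GLIS3 lay between −0.02 and 0.10, turning sign without LD replicate 4. A cohort differs from another in age and in all else its animals share, which cannot be told apart here.

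The exon table shows whether a slope belongs to the whole gene or to a stretch of it. Exons were numbered by position from the lowest coordinate, and 51 of the 53 exons of the 5 genes passed a minimum of 5 normalized reads in at least 6 libraries. Of these, 48 had a slope of the same sign as their gene, and all 51 lay within 2 SE of the slope of the gene. Exons sum to the gene, so their slopes repeat what chose it. Over all 119940 tested exons, 2756 had a positive and 3181 a negative slope at an unadjusted p under 0.05 (4.95% in all), and 0 (0%) passed adjustment.

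GPRIN3 is in effect a single-exon measurement: exon 1 (87602211 to 87608166) held 97.9% of its reads and had a slope of 0.17 ± 0.04, and exon 2 had 4.605 normalized reads on average and a slope of 0.15 ± 0.17. SUCO had 21 of 22 exons with a positive slope. The steepest was exon 15 (194464075 to 194464142), at 0.26 ± 0.11, with 7.62 ± 3.46 normalized reads in VHD and 5.21 ± 2.02 in LD. Exon 20 (194478790 to 194478944) went the other way at −0.10 ± 0.11, within its error of 0, and exon 3 was the flattest at 0.01 ± 0.20. The 2 exons with the most SUCO reads, exons 1 and 7, with 31.8% and 19.3% of them, had slopes of 0.10 ± 0.05 and 0.05 ± 0.05. These 2 estimates are lower than those of many thin exons, but all 22 exons lay within 2 SE of the slope of the gene. A difference between exons was not tested.

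GLIS3 had 7 of 9 tested exons with a negative slope. Exon 1 (30563761 to 30568358), with 51.3% of the reads, was at −0.16 ± 0.05, and exon 8 (30871367 to 30872483), with 22.7%, was at −0.19 ± 0.08. In exon 1 the means were 78.8 ± 13.1 normalized reads in LD animals, 68.6 ± 9.5 among BD, 55.1 ± 9.7 among HD and 60.2 ± 6.2 among VHD animals. In exon 8 they were 38.9 ± 13.2 for LD, 32.6 ± 11.0 for BD, 24.4 ± 4.6 for HD and 24.4 ± 8.1 for VHD. So the 2 exons that carry most of the gene, near opposite ends of its span, each repeat the low values of HD and VHD. The remaining tested exons average 3.77 to 5.74 normalized reads: exon 2 was the steepest at −0.42 ± 0.15, exon 6 the flattest at 0.00 ± 0.15, and exon 7 stood at 0.11 ± 0.16.

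FANCG had all 14 exons with a negative slope, spread over a gene of 14 short exons in which no exon held more than 12.3% of the reads. Exon 11 (61988616 to 61988818) was the steepest at −0.27 ± 0.11, with 10.2 ± 6.3 normalized reads in VHD and 13.4 ± 4.3 in LD, and exon 10 the flattest at −0.02 ± 0.10. All 4 tested exons of C18orf21 were negative. Exon 4 (24683656 to 24683846) was the steepest at −0.26 ± 0.07 and had 22.8 ± 5.4 normalized reads in VHD and 32.0 ± 7.1 in LD. Exon 3 was the flattest at −0.16 ± 0.09. Exon 5, with the largest share of reads at 35.9%, had a slope of −0.16 ± 0.07 in the fit with cohort, although its plain means were 31.9 ± 10.0 in VHD and 31.9 ± 4.4 in LD. Differences between cohorts were called by limma for 0 of 119940 exons after adjustment and for 6615 (5.52%) before it, and among the 51 exons of these genes 2 had an unadjusted p under 0.05, GPRIN3 exon 1 at 0.0349 and C18orf21 exon 5 at 0.0134.

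**Figure D3:**
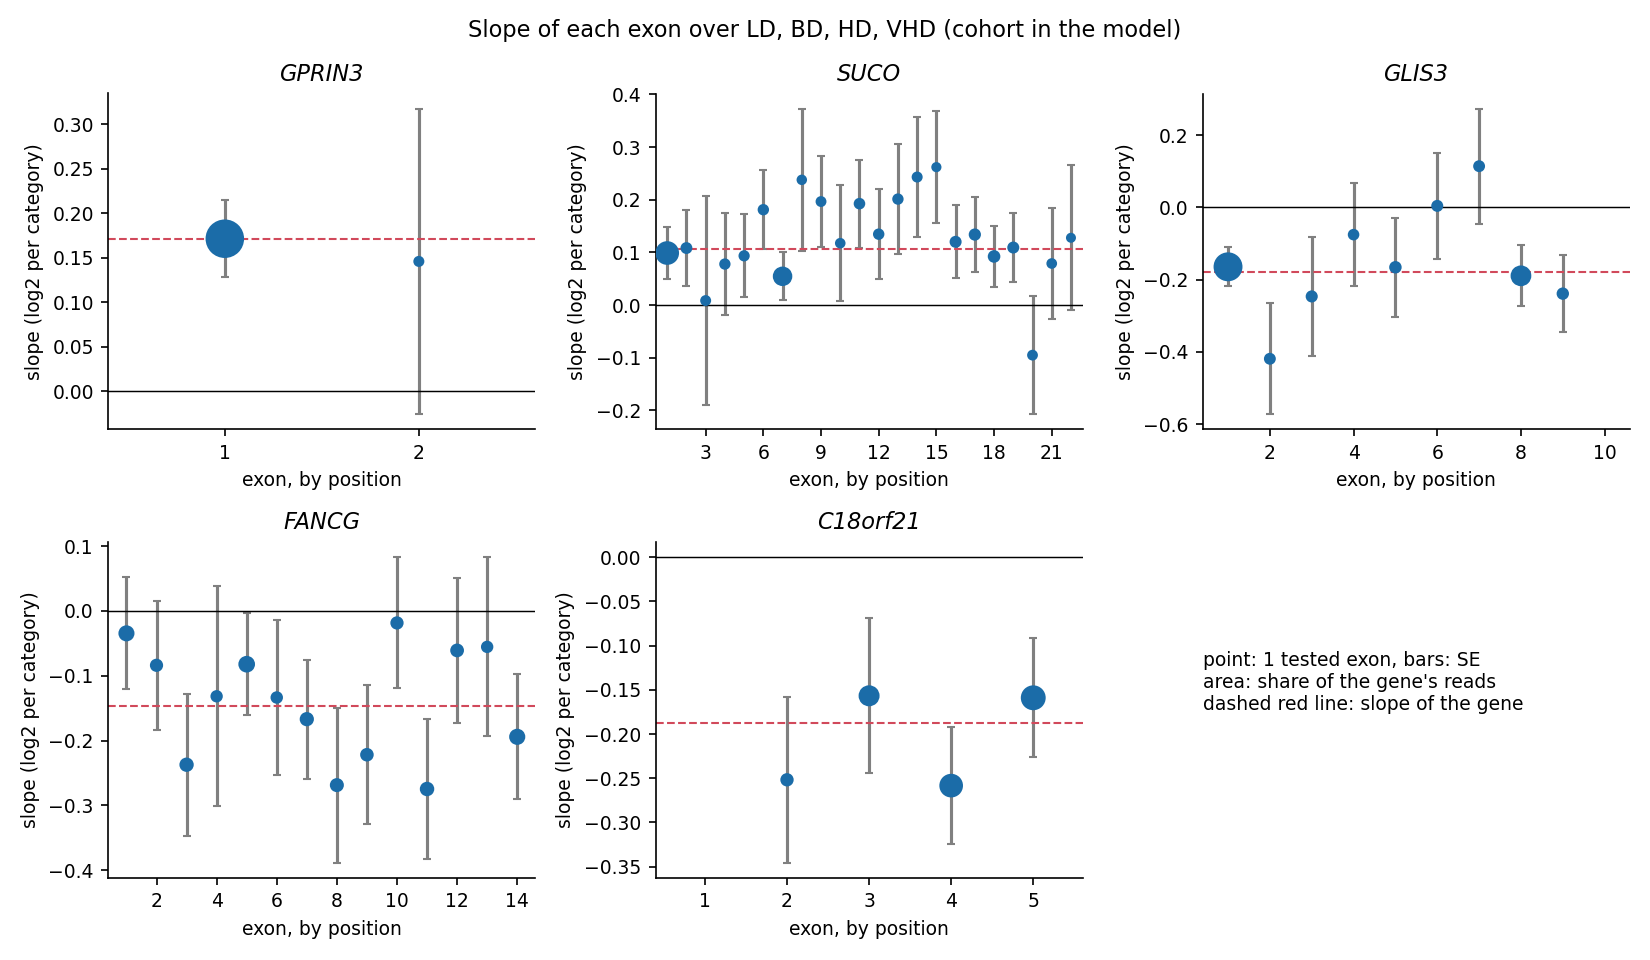
Slope per drinking category in log2 units (y axis) of each tested exon in order of position (x axis), with bars giving 1 SE, point area giving the share of the gene's reads and a dashed line at the slope of the gene. All 14 FANCG exons and all 4 C18orf21 exons lie below 0, 21 of 22 SUCO exons and both GPRIN3 exons lie above it, and the GLIS3 exons above 0 are thin ones.

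Relatives of the 5 genes were taken from 5 lists, one for each gene, and their slopes were set beside those of all genes, of which 6.18% had an unadjusted p under 0.05. In the G protein list, 0 of 7 tested relatives of GPRIN3 had an unadjusted p under 0.05 for the trend, with a median slope of 0.02 against −0.0001 over all genes. GPRIN1 was at −0.01 ± 0.03, GPRIN2 at 0.21 ± 0.11, and the inhibitory alpha subunit gene GNAI3 at 0.04 ± 0.03. SUN proteins and their KASH partners, which link the nuclear envelope to the cytoskeleton, stand nearest to SUCO by domain. None of 5 tested had an unadjusted p under 0.05, and all 5 slopes were below 0 (median −0.02), the opposite sign to SUCO: SUN1 was at −0.0004 ± 0.0284, SUN2 at −0.04 ± 0.03 and SYNE3 at −0.07 ± 0.08. TAPT1, a membrane protein gene, was not analysed here.

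Among GLIS, GLI and ZIC zinc finger genes with SUFU, the inhibitor of GLI factors, 0 of 8 tested had an unadjusted p under 0.05, 6 had a slope below 0 and the median was −0.02. GLIS2 was at −0.01 ± 0.07, with 66.9 ± 10.1 normalized reads in VHD and 64.1 ± 15.8 in LD, ZIC1 at −0.08 ± 0.08 and GLI1 at −0.05 ± 0.09. GLIS1 fell under the filter at 5.42 normalized reads, and GLI3 was not analysed here. Fanconi anaemia genes counted 17 tested, with a median slope of 0.02, 0 with an unadjusted p under 0.05 upward and 1 downward. That gene is STRA13, an older symbol for a DNA-binding partner of FANCM, at −0.16 ± 0.07 (adjusted p = 0.745 in limma). Among other core complex genes FANCA, FANCB, FANCC, FANCF and FANCL were at 0.04 ± 0.07, 0.04 ± 0.09, 0.06 ± 0.05, 0.03 ± 0.05 and 0.03 ± 0.04, and FANCE was at −0.06 ± 0.06. FANCM, which brings the complex to DNA, was at 0.04 ± 0.04 and C17orf70, a further core complex gene under its older symbol, at −0.05 ± 0.06. FANCI, which the core complex modifies, was at −0.06 ± 0.05, and UBE2T, its ubiquitin-conjugating partner, at −0.19 ± 0.12. FANCD2 was not analysed here.

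Proteins of RNase P and RNase MRP numbered 10 tested, with a median slope of 0.02, 1 with an unadjusted p under 0.05 upward and 0 downward. POP4, a subunit of both enzymes, was the gene upward, at 0.12 ± 0.05 (adjusted p = 0.745 in limma), with 100.4 ± 15.3 normalized reads in VHD and 74.98 ± 12.0 in LD, the opposite direction to C18orf21. POP1, the largest shared subunit, was at 0.01 ± 0.03 and RPP40 at 0.06 ± 0.06. Over the 5 lists, 2 of 47 tested relatives had an unadjusted p under 0.05, 1 in each direction, and 0 passed adjustment, against 3.12% of all tested genes upward and 3.06% downward.

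For each of the 5 genes, the 3 genes with the most similar values over the 30 libraries were named, by Pearson r of log2 values and with no test. These libraries share the same drinking categories, cohorts and library order. GPRIN3 was closest to SLC25A51, which encodes a mitochondrial NAD carrier (r = 0.74, and 0.72 after removing category and cohort), then to the GTPase gene DRG1 (0.70 and 0.63) and the sperm calcium channel gene CATSPER3 (0.70 and 0.62). SUCO was closest to the vesicle transport GTPase gene RAB10 (0.81 and 0.77), the chromatin protein gene NUCKS1 (0.81 and 0.81) and PAIP2, which encodes a repressor of poly(A)-binding protein (0.80 and 0.84). GLIS3 was closest to AMT of the glycine cleavage system (0.73 and 0.55), the acyltransferase gene GPAT2 (0.73 and 0.33) and VWA7 (0.71 and 0.49). All 3 likenesses of GLIS3 were smaller once category and cohort were removed, whereas those of SUCO changed little. All 3 were also smaller for GPRIN3, and for FANCG and C18orf21 below. The ranking used values that still held category, and the genes were chosen for their slopes over category, so such a drop can come from the choice.

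FANCG was closest to FAM156B (0.80 and 0.67), PIGO (0.79 and 0.68) and the acyl-CoA thioesterase gene ACOT11 (0.79 and 0.79). PIGO, a gene of glycosylphosphatidylinositol anchor synthesis, is also a neighbour of FANCG on chromosome 9, at 8999 bases from its end. PIGO had a slope of −0.10 ± 0.04, which is given because PIGO was already picked for its likeness to FANCG. On the other side VCP lies nearer, at 1091 bases, and its slope and r are not given here. Whether neighbours on a chromosome share their slopes was not tested. C18orf21 had the lowest r, to COPZ1 of the COPI vesicle coat (0.66 and 0.64), the sperm protein gene CABYR (0.59 and 0.42) and the lymphocyte GTPase gene GIMAP5 (0.58 and 0.21). The 99th percentile of r over all tested genes was 0.69 for SUCO, 0.66 for FANCG, 0.52 for GLIS3, 0.52 for GPRIN3 and 0.42 for C18orf21. A given r is therefore less unusual for SUCO and FANCG than for C18orf21. CATSPER3 and GIMAP5 averaged only 13.8 and 15.4 normalized reads.

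How the 5 genes vary with each other was tested on what remained after category and cohort were removed, a measure that the slopes did not use. Of 10 pairs over 30 libraries, 2 had an adjusted permutation p under 0.05 (100000 resamples, two-sided, Benjamini-Hochberg over the 10). The permutation treats the 30 remaining values as free and makes no allowance for the terms removed, so these p-values run too small. SUCO and FANCG went opposite ways, with r = −0.63 (permutation p = 0.00024, adjusted 0.0024) and rho = −0.53 (adjusted 0.0287). GPRIN3 and SUCO went together, with r = 0.52 (permutation p = 0.00332, adjusted 0.0166) and rho = 0.50 (adjusted 0.0287). Without the 2 libraries farthest from the median of the second gene, r was −0.50 and 0.48, and both adjusted permutation p-values became 0.0522, so the calls rest in part on those libraries. With sets of library numbers removed as well, r was −0.45 for SUCO and FANCG (adjusted permutation p = 0.0684) and 0.56 for GPRIN3 and SUCO (adjusted permutation p = 0.0152). Without the 2 libraries farthest from the median of SUCO, the latter was 0.49 (adjusted permutation p = 0.0705). With the first principal component of the libraries removed in place of the sets, r was −0.26 for SUCO and FANCG (adjusted permutation p = 0.414). For GPRIN3 and SUCO it was 0.60 (adjusted permutation p = 0.0039), and 0.61 without the 2 libraries farthest from the median of SUCO (adjusted permutation p = 0.0056). The call for SUCO and FANCG is thus lost under both removals. Whether the call for GPRIN3 and SUCO holds once an allowance is made for the removed terms was not tested. GPRIN3 and GLIS3 stood at r = −0.32 (adjusted permutation p = 0.262), and at −0.45 without the 2 libraries farthest from the median of GLIS3 (adjusted permutation p = 0.0522), and GLIS3 and FANCG, both with negative slopes, at −0.01 (adjusted permutation p = 0.942).

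**Figure D4:**
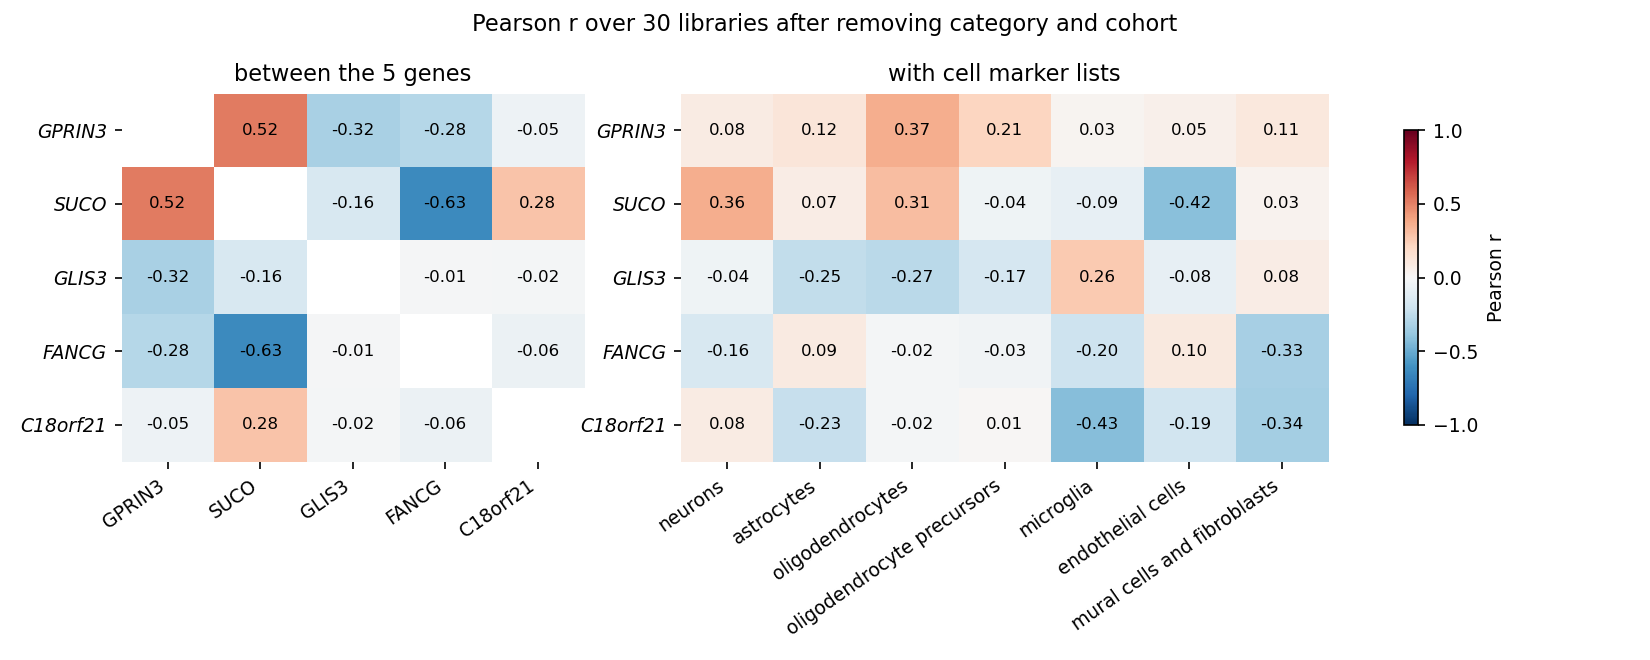
Pearson r over 30 libraries after removing category and cohort, between the 5 genes (left) and between each gene (rows) and the mean z value of 7 cell marker lists (right), coloured from −1 to 1. SUCO with FANCG (−0.63) and SUCO with GPRIN3 (0.52) are the pairs past the adjusted threshold, the first no longer so once library sets or the first principal component are removed, and no gene with a marker list is. The p-values behind these calls make no allowance for the terms removed.

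SUCO and FANCG also followed the main axis of variation among libraries. Principal component analysis of the libraries gave a first axis with 12.9% of the variance, on which LD, BD, HD and VHD animals averaged −3.6, −7.8, 8.2 and 5.5, so values that still hold the categories share their slopes with it. It was therefore tested with category and cohort removed from the genes and from the axis. Its r was then 0.81 with SUCO (rho = 0.80, adjusted permutation p = 0.00015 over 15 relations, the smallest that the resamples allow) and −0.64 with FANCG (rho = −0.65, adjusted permutation p = 0.0015). As with the pairs, these p-values make no allowance for the terms removed and run too small. Without the 2 libraries farthest from the median of the axis, r was 0.81 and −0.64. C18orf21, GPRIN3 and GLIS3 had r = 0.43, 0.22 and −0.10 with it, none past adjustment, and none of the 5 genes passed with the depth of the libraries.

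This component goes with the numbers that the labels give the libraries, whose meaning the labels do not state. Taken in consecutive sets of 8 numbers, its mean was 12.9 ± 3.2 (SD) in libraries 1 to 8, −15.1 ± 11.9 in 9 to 16, −3.5 ± 6.4 in 17 to 24 and 6.1 ± 7.9 in 25 to 32. SUCO averaged 710 ± 35, 602 ± 48, 595 ± 25 and 677 ± 78 normalized reads in the 4 sets, and FANCG 123 ± 15, 159 ± 26, 160 ± 20 and 143 ± 18. Libraries 1 to 8 thus had the highest mean of SUCO and the lowest of FANCG. In the same order of sets, GPRIN3 averaged 238 ± 34, 222 ± 37, 189 ± 36 and 220 ± 32. GLIS3 averaged 120 ± 20, 134 ± 30, 153 ± 34 and 128 ± 18, and C18orf21 98.2 ± 12.6, 83.9 ± 19.3, 84.0 ± 14.1 and 85.0 ± 19.9. So libraries 1 to 8 also had the highest means of GPRIN3 and C18orf21 and the lowest of GLIS3. These libraries hold 1 LD, 1 BD, 4 HD and 2 VHD animals. Their single LD animal has the highest SUCO value (706) and the lowest FANCG value (111) of all LD animals. With the sets in the model, the slope was 0.08 for SUCO and −0.11 for FANCG, and with the first component in the model it was 0.08 and −0.12. Over libraries 9 to 32 alone it was 0.11 and −0.16. GLIS3 kept −0.16 with the sets and −0.17 with the component, GPRIN3 0.14 and 0.16, and C18orf21 −0.24 and −0.22. The part that library order plays in these slopes was not tested beyond these fits.

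**Figure D5:**
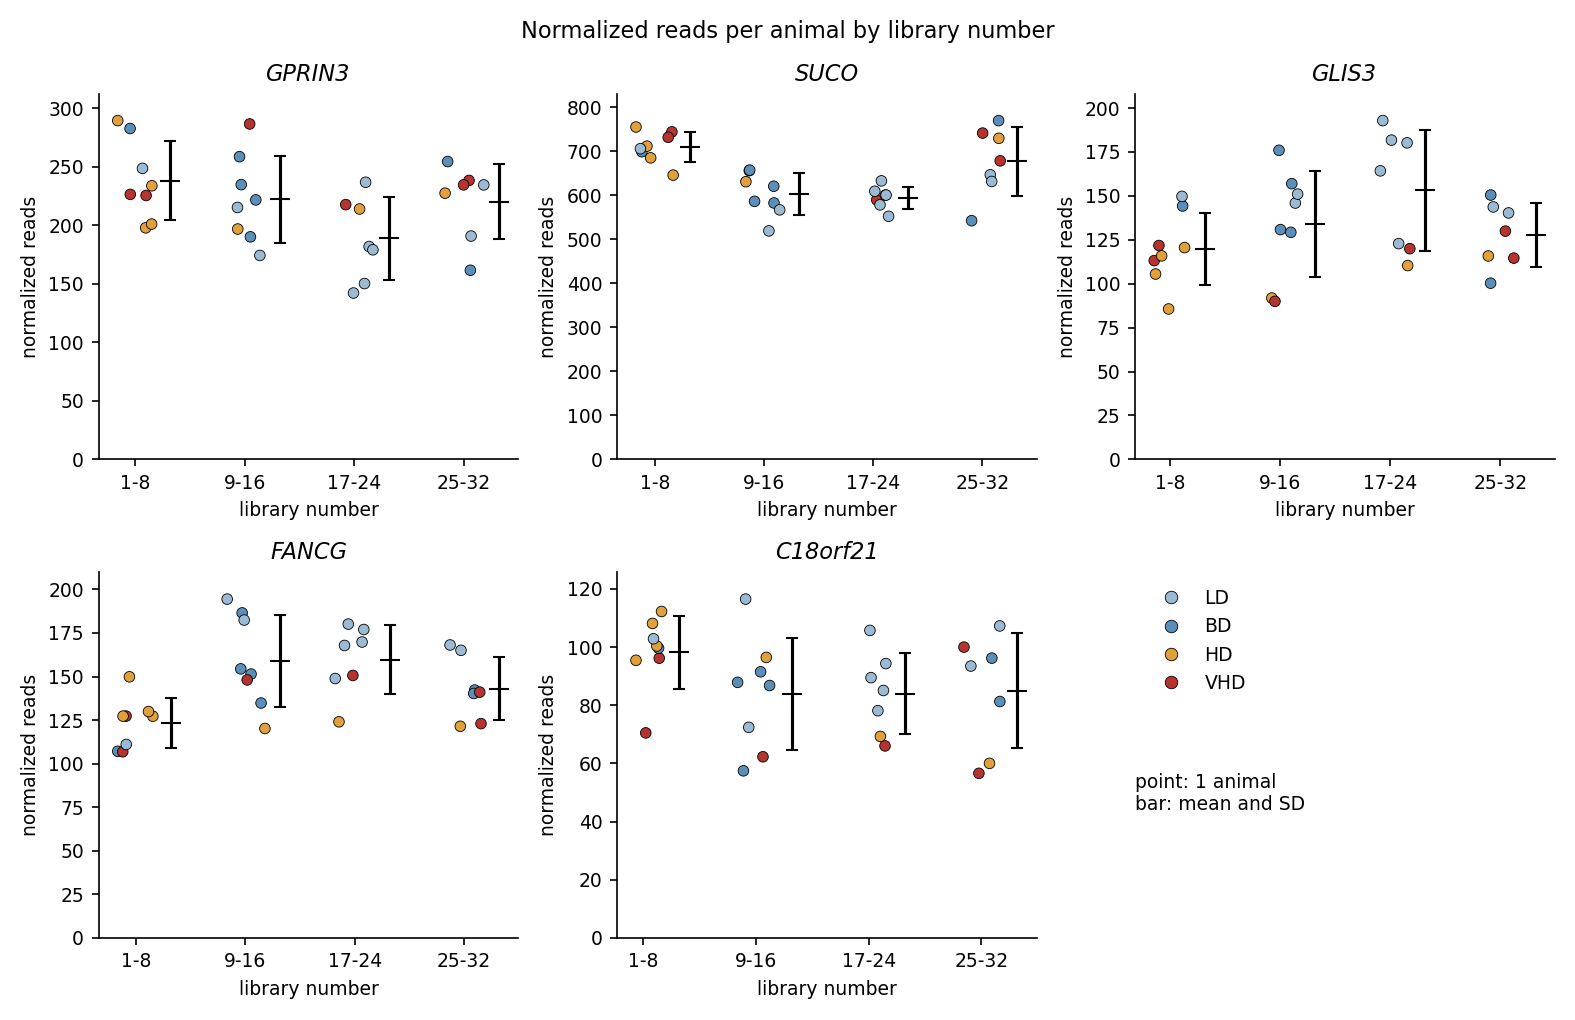
Normalized reads (y axis, from 0) of each gene in each animal by the number of its library in sets of 8 (x axis), with points coloured by drinking category and bars giving mean and SD. Libraries 1 to 8 have the highest SUCO mean and the lowest FANCG mean, at 710 ± 35 and 123 ± 15. They also have the highest GPRIN3 and C18orf21 means, at 238 ± 34 and 98.2 ± 12.6, and the lowest GLIS3 mean, at 120 ± 20.

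The tissue holds neurons and glia, and their markers were set beside the genes. All markers listed for astrocytes, oligodendrocytes, microglia, and mural cells with fibroblasts passed the filter on low values and were used. So did 7 of 8 for neurons, 7 of 8 for endothelial cells and 6 of 7 for oligodendrocyte precursors. Left out were SLC17A7 for neurons, PECAM1 for endothelial cells and CSPG4 for precursors, while GAD1 and GAD2 stayed among the neuronal markers. None of the markers used was at 0 in any library. Summed neuronal markers ranged from 41614 to 47227 normalized reads in VHD and from 39801 to 52219 in LD, and astrocyte markers from 90814 to 101473 in VHD and from 79742 to 104594 in LD. Oligodendrocyte markers spanned 4193 to 11440 in VHD and 4030 to 10790 in LD, precursor markers 5269 to 6531 in VHD and 5576 to 6913 in LD, and microglial markers 1456 to 1652 in VHD and 1442 to 1938 in LD. For endothelial cells the range was 1187 to 2210 in VHD and 1259 to 2169 in LD, and for mural cells and fibroblasts 3115 to 5382 in VHD and 3080 to 7018 in LD. VHD and LD overlap in each of the 7 lists. HD animals ranged from 43293 to 52172 for neurons, 79299 to 93441 for astrocytes, 3455 to 6156 for oligodendrocytes, 5572 to 6647 for precursors, 1178 to 1794 for microglia and 1444 to 2261 for endothelial cells. BD animals ranged from 42119 to 47794, 78936 to 99731, 3612 to 19777, 5459 to 7279, 1440 to 1675 and 1571 to 2051 in the same order. Mural cell and fibroblast markers had medians of 3266 among HD animals (2676 to 7190) and 4983 among BD (3438 to 6964), beside 4451 among VHD and 4784 among LD animals. Of 35 relations between a gene and a list, 0 passed an adjusted permutation p of 0.05, also after removing category and cohort or the 2 libraries farthest from the median of the list. The largest was SUCO with endothelial markers, at r = −0.40 and rho = −0.48, and after removing category and cohort C18orf21 with microglial markers, at r = −0.43 and rho = −0.44. The part of cell composition in the slopes was not tested further.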

How the data were processed

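The values are the authors' deposited tables of genes and exons, in which reads were scaled to a common upper quartile, so the unit is a normalized signal. Per the submitters' processing notes, CASAVA, FastQC, STAR 2.3.0e and edgeR were used. The build is not given in the sources used here, nor are the annotation and counting program. Each gene equals the sum of its exons. Dividing each library by its smallest step gave whole reads (100% of values within 0.01), although in the library numbered 14, and in library 8 of the exon table, a read is worth close to 1 normalized read and whole reads cannot be told from rounding. Genes at or above 10 normalized reads in 6 or more of 30 libraries (12935), and exons at or above 5 (119940), were fitted as log2(value + 1), so low genes change more than stated, in limma 3.58.1 (R 4.3.3; lmFit, eBayes with a mean trend), with cohort and with category either as 4 means or as scores in steps of 1, and Benjamini-Hochberg adjustment at 0.05 over all features tested. edgeR 4.0.16 (quasi-likelihood, TMM) on whole reads was an alternative. Correlations used permutation tests (100000 resamples, scipy 1.17.1). Those run after removing terms make no allowance for the terms removed. Replicates are separate animals. In data simulated for 12935 genes, limma recovered 64.2% of 1.5-fold and 95.5% of 2-fold changes for the trend, and 67.2% and 92.5% for cohorts. For the trend the fold ran over the whole range from LD to VHD, and cohort changes were put into cohort 4 alone. Genes were drawn independently, with no component shared between libraries, so the rates hold for that setting only.

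The members and lists were chosen with earlier results of these data known. Genes named are the 5 members, their closest relatives, the 2 relatives of each list with the smallest p over the trend, and the 3 genes most like each member; genomic neighbours are named by position. For exons, the steepest and flattest of each gene and those with the largest share of reads are named. Alternatives covered pseudocounts (0.25, 4), filters (none, 100), scaling, covariates, cohorts 4 and 7a alone and leaving out each of 30 libraries; a principal component term, libraries 9 to 32 only, cohorts 5 and 7b alone, and correlations with technical variables and with further terms removed were added after the data were seen.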

Additional observations from a re-analysis of the deposited data

Results flagged for a closer look

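Within each category, the highest and lowest animal of each gene were compared with the rest by Dixon's ratio, the gap to the nearest animal divided by the range of the group, on log2 values. Of 20 groups (5 genes in 4 categories) 4 had an animal apart; chance flags about 1 in 20 such groups. GPRIN3 in VHD replicate 3 was highest, at 286 normalized reads against 238 in the next animal (ratio 0.67, critical value 0.625). FANCG in HD replicate 2 was highest, at 150 against 130 (0.648, critical value 0.568), and in LD replicate 1 lowest, at 111 against 149 (0.523, critical value 0.466). C18orf21 in BD replicate 5 was lowest, at 57.5 against 81.3 (0.629, critical value 0.568). On normalized reads without the logarithm the last 2 do not pass, with ratios of 0.454 and 0.565, and the first 2 do, with 0.7 and 0.672. The slopes without any 1 library stayed between 0.15 and 0.18 for GPRIN3, −0.16 and −0.13 for FANCG and −0.22 and −0.16 for C18orf21.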

How the results depend on the processing

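Over 45 alternatives, 30 of which leave out 1 library, the slopes of GPRIN3 (0.09 to 0.26), SUCO (0.06 to 0.12) and GLIS3 (−0.41 to −0.09) kept their sign in all 45. Those of FANCG (−0.23 to 0.03) and C18orf21 (−0.24 to 0.01) did in 44, turning in cohort 5 alone (0.027 for FANCG) and cohort 7b alone (0.0054 for C18orf21). Because the genes were chosen for these slopes and the alternatives reuse the same animals, the kept signs support nothing by themselves. Moves of over 1.5 times came from dropping the cohort term (0.09 for GPRIN3, 0.07 for SUCO, −0.09 for C18orf21), and from cohorts 4 (−0.23 for FANCG), 5 (0.26 for GPRIN3), 7a (−0.09 for GLIS3) and 7b (0.06 for SUCO, −0.41 for GLIS3, −0.06 for FANCG) alone; the cause was not tested. The difference of cohort 4 from 7a turned sign in GLIS3 without LD replicate 4 (−0.02). The adjusted count was 0 for the trend throughout, while its unadjusted count, 799, ranged from 501 (without LD replicate 8) to 1188 (without VHD replicate 4), was 405 with library sets, 496 with the first component, 541 in libraries 9 to 32 and 1460 with no cohort term. Any cohort difference, with 0 genes, became 1 with library sets and 5 with the first component. Cohort 4 against 7a, also with 0, became 15 with library sets, 26 with no category term, and 0 to 7 without single libraries (7 without BD replicate 1, 1 without LD replicate 9). HD against LD, with 0, became 1 with no cohort term. The pathway lists, with 2 relatives at an unadjusted p under 0.05, held 4 with no cohort term and 0 with library sets. Of 51 tested exons 48 shared the sign of their gene, and 21 of 21 did at a minimum of 20 reads, where fewer exons are tested. No paired analysis was possible because the labels number each library once and give the categories no shared replicate numbers. Depth limits C18orf21 most, at 32 to 151 reads a library.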

Other observations

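Between the oldest and the youngest cohort, several relatives of the 5 genes had larger differences than the 5 genes themselves, none past adjustment in limma; they were chosen after their values were seen. FANCE, a core complex partner of FANCG, was 0.50 ± 0.15 log2 units higher in cohort 4 than in cohort 7a (adjusted p = 0.237), and BRCA2, which acts later in crosslink repair, 0.51 ± 0.19 higher (adjusted p = 0.407). ZIC2, a zinc finger transcription factor gene of the list that holds GLIS3, was at −0.72 ± 0.21 (adjusted p = 0.220). In the test of any cohort difference, 0 of 47 relatives passed adjustment, and 4 had an unadjusted p under 0.05, beside 8.04% of all tested genes.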
